A study of Mus musculus with 11 samples.

Results

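Integrins and cadherins, the main receptors by which cells hold to matrix and to each other, were examined in mouse NSC34 cells that carry a hairpin against Tardbp. The members were taken from the platform annotation by symbol: every single symbol that opens with Itga or Itgb followed by a digit or letter, leaving out Itgb1bp and Itgb3bp names, or with Cdh followed by a digit. This gave 42 genes of the 15803 measured, 23 with an integrin symbol and 19 cadherins. Itga4 shared its probe sets with a neighbouring gene in the annotation and was not analysed here.

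NSC34 is a hybrid line made from neuroblastoma and embryonic spinal cord cells, and TDP-43, the product of Tardbp, is an RNA-binding protein that controls splicing. All cells had been transfected with a pSUPERIOR hairpin vector and selected as stable clones with puromycin. The groups were 4 arrays of cells with the Tardbp hairpin (shTardbp 1 to 4), 4 of cells whose hairpin targets GFP (shGFP 1, 2, 3 and 5) and 3 of cells whose hairpin targets luciferase of Renilla (shLuciferase 1, 2 and 4). Whether a group's arrays stand for separate clones or cultures is not stated. The p-values therefore cover the spread among these arrays alone, which may be technical, and a trait of 1 clone cannot be told apart from an effect of its hairpin. The hairpin against Tardbp was built on this 25-base target, which identifies the perturbation.
Tardbp target: tctaagcaaagccccagacgagcct

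Integrins are pairs of an alpha and a beta subunit. The alpha subunit largely sets the ligand (laminin, collagen, or RGD-containing proteins such as fibronectin and vitronectin), while beta tails bind talin and kindlin and so reach actin. Classical cadherins bind the same or a similar cadherin on the next cell in the presence of calcium, and their tails hold p120 catenin and beta-catenin or plakoglobin, which alpha-catenin links to actin. In developing spinal cord, type I and type II cadherins are known for sorting motor neurons into pools, and laminin-binding integrins for axon growth.

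Values are log2 expression, a gene's value being the mean of its probe sets. Each array gave a 25th percentile of all probe set values between 4.46 and 4.57, and a group mean under 4.57 is called low here because it is not shown to be above background. Levels of different genes were not set against each other. Tardbp itself had 8.82, 8.80, 8.997 and 8.91 in shTardbp, 9.25, 9.08, 9.36 and 9.42 in shGFP and 9.29, 9.38 and 9.20 in shLuciferase, so all 4 shTardbp arrays were below all 7 controls (log2 change -0.40, SE 0.0722, adjusted p = 0.000713 by limma). The labels give each array a code that begins with a letter, P for all of shTardbp and for shLuciferase 4, and C for the rest. Only shLuciferase holds both letters, so any effect of the letter is estimated from shLuciferase 4 against the other shLuciferase arrays. A block for the letter, here and below, thus cannot tell such an effect from a trait of that array. A call lost under the block is not evidence for either. The labels leave the meaning of the letter unstated. Entered as a block, it gave Tardbp a log2 change of -0.29 and an adjusted p of 0.173. Of 22 measured neuronal and motor neuron markers, 18 were above the low mark in at least 1 group, while Chat, Slc5a7, Mnx1 and Dcx were low in all groups. Of this list 4 rose (Mapt, Syp, Slc18a3 and Isl2) and 1 fell (Elavl4), where 13.5% of all genes were called higher and 17% lower, the background for every gene list named here. Its summed level was 182.7 to 186.2 in shTardbp and 180.7 to 182.5 in the controls, so the ranges did not overlap. The part of this shift in the members' changes was not tested. In bulk RNA, fewer cells of a type and less RNA per cell cannot be told apart.

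The first comparison asked which adhesion receptor genes differed between shTardbp cells and both controls together. Cadherin Cdh20 fell 2.04-fold and integrin subunits Itgb3 and Itga2 fell 1.56-fold and 1.51-fold, while Cdh4, Itgal, Cdh17 and Cdh22 rose 1.65-fold, 1.59-fold, 1.42-fold and 1.42-fold. In all, 16 of the 42 members passed an adjusted p of 0.05, 11 higher and 5 lower in shTardbp. Higher calls thus made up 26.2% of members against 13.5% of all genes, and lower calls 11.9% against 17% of all genes. Of the 23 integrin genes 7 rose and 3 fell, and of the 19 cadherins 4 rose and 2 fell. The median log2 change of the members was 0.04, beside 0.01 over all 15803 genes, and the median size regardless of sign was 0.07 for members and 0.11 for all genes. The 4 shTardbp arrays lay above all 7 control arrays in 7 members (16.7%, against 8.45% of all genes) and below them in 2 (4.76%, against 9.82%). Another 14 members were low in all groups, and none of them passed (log2 changes -0.06 to 0.12, smallest adjusted p = 0.169). With the array code letter entered as a block, 8 of the 42 members were called, 7 higher and 1 lower. All 8 were among the 16 (Cdh2, Cdh4, Cdh17, Cdh20, Cdh22, Itga3, Itgal and Itgav). Over all genes 7.74% were called higher and 8.14% lower under that block, whether or not they were called without it.

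**Figure D1:**
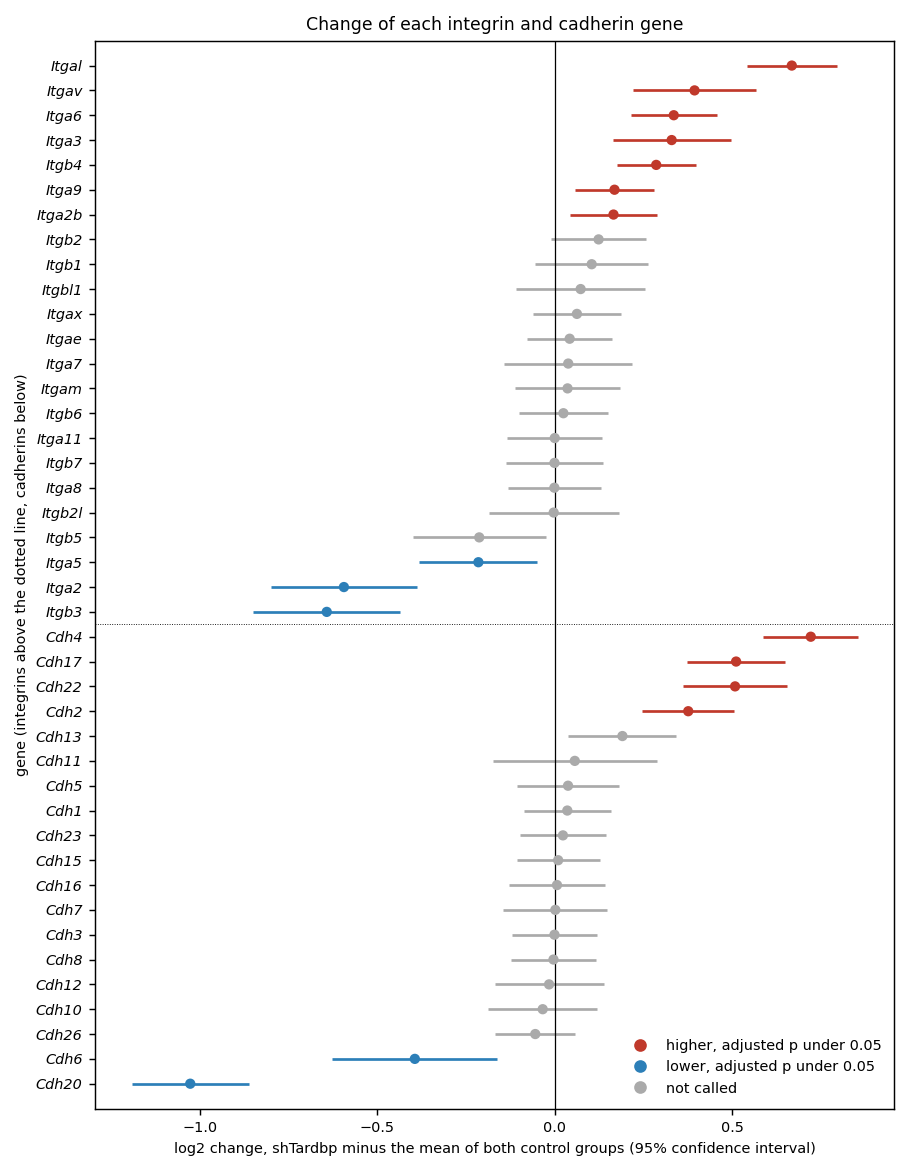
The log2 change of each of the 42 genes (horizontal axis, shTardbp minus both controls) is shown as a point with its unadjusted 95% confidence interval, integrins above and cadherins below. Red points passed as higher and blue points as lower, and most other genes sit close to 0.

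Among the alpha subunits analysed here 6 of 14 rose and 2 fell. Laminin-binding subunits come first: of the 3 measured, Itga3 and Itga6 rose and Itga7 did not pass (log2 change 0.04, 95% confidence interval -0.14 to 0.22). Itga6, which pairs with beta-1 or beta-4 as a laminin receptor, had 10.16, 10.18, 10.25 and 10.28 in shTardbp, 10.05, 10.01, 10.09 and 10.18 in shGFP and 9.62, 9.68 and 9.73 in shLuciferase. All shTardbp arrays stood well above shLuciferase, but shGFP 5 lay within the shTardbp range (log2 change 0.34, SE 0.0564, adjusted p = 0.000417). All 25 of its probe sets were higher, by 0.01 to 0.51. Itga3, a beta-1 partner that also binds laminin, had 6.42, 6.56, 6.30 and 6.35 in shTardbp, 6.03, 6.14, 5.96 and 5.88 in shGFP and 6.29, 6.19 and 5.98 in shLuciferase. Its shTardbp values lay above all controls, the nearest being shLuciferase 1 (log2 change 0.33, SE 0.0772, adjusted p = 0.00467). Taking the median over its probe sets gave a log2 change of 0.29 (adjusted p = 0.0582).

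Itgb4, the beta-4 subunit that pairs with alpha-6 and anchors epithelial cells to laminin in hemidesmosomes, rose 1.22-fold. It had 5.397, 5.398, 5.30 and 5.31 in shTardbp, 5.02, 5.02, 4.98 and 5.03 in shGFP and 5.12, 5.07 and 5.18 in shLuciferase, with no overlap between shTardbp and the controls (log2 change 0.29, SE 0.0518, adjusted p = 0.000744). Its 41 probe sets did not move alike: 27 had a mean above the low mark, and their changes ran from -0.32 to 1.44 with a median of 0.30. Those means include the shTardbp arrays, so a rise can itself lift a probe set over the mark. The 20 nearest measured genes in the RefSeq gene order had a median log2 change of -0.15, while Itgb4 rose. With the code letter as a block its log2 change was 0.21 (adjusted p = 0.150), and that of Itga6 was 0.27 (adjusted p = 0.101).

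The RGD-binding subunits divided. Itgav, the alpha-v subunit shared by receptors for vitronectin and latent TGF-beta, had 7.75, 7.62, 7.60 and 7.71 in shTardbp, 6.70, 7.05, 7.06 and 7.08 in shGFP and 7.68, 7.60 and 7.44 in shLuciferase. The shTardbp arrays were far above shGFP and overlapped with shLuciferase (log2 change 0.39, SE 0.0806, adjusted p = 0.00184). Itga5, which with beta-1 makes the main fibronectin receptor, fell 1.16-fold, but with 8.87, 8.65, 8.63 and 8.71 in shTardbp, 9.12, 9.35, 9.11 and 8.99 in shGFP and 8.83, 8.72 and 8.60 in shLuciferase it passed only against shGFP. Its adjusted p of 0.0487 lies next to the threshold and was above it in 14 of 20 alternatives. Itga2b, the platelet subunit that pairs with beta-3, had a log2 change of 0.17 (SE 0.0568, adjusted p = 0.0402), which was above the threshold in 14 of 19 alternatives. It had 5.07, 5.21, 5.04 and 5.10 in shTardbp, 4.88, 4.85, 4.88 and 4.94 in shGFP and 4.92, 4.96 and 5.09 in shLuciferase, with shLuciferase 4 inside the shTardbp range. Itga8, an RGD receptor subunit known from kidney and brain, was at 7.92 in shTardbp, 7.84 in shGFP and 8.01 in shLuciferase (log2 change -0.00129, 95% confidence interval -0.13 to 0.13).

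Itga2, which with beta-1 forms a collagen receptor, fell 1.51-fold (log2 change -0.59, SE 0.0958, adjusted p = 0.000294). It had 4.77, 5.17, 4.53 and 4.81 in shTardbp, 5.69, 5.78, 5.79 and 5.85 in shGFP and 5.15, 4.99 and 5.02 in shLuciferase. The 4 shGFP arrays were clearly the highest, whereas shTardbp 2 was above all shLuciferase arrays. In 25 of 26 probe sets the shTardbp mean was lower than the mean of the control groups. The other collagen-binding subunit measured, Itga11, had a log2 change of -0.000227 (95% confidence interval -0.13 to 0.13). Itga9, a receptor subunit for tenascin and VCAM-1, was at 5.04, 5.08, 5.03 and 5.03 in shTardbp, 4.83, 4.72, 4.76 and 4.75 in shGFP and 4.98, 4.92 and 5.06 in shLuciferase (log2 change 0.17, SE 0.0520, adjusted p = 0.0239). It was above shGFP on every array and overlapped with shLuciferase, and 8 of 19 alternatives lost the call.

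Itgal, the alpha subunit of the leukocyte receptor LFA-1, had the largest rise of the integrins (1.59-fold, log2 change 0.67, SE 0.0590, adjusted p = 1.91e-06). It had 5.92, 5.71, 5.86 and 5.92 in shTardbp, 5.07, 5.14, 5.09 and 5.09 in shGFP and 5.35, 5.22 and 5.24 in shLuciferase, and no control array reached the shTardbp values. Of its 30 probe sets, 20 had a mean above the low mark. Of these 18 were higher in shTardbp, with a median change of 1.00 and a largest change of 1.95. The 10 dimmer ones had a median change of 0.07, and the gene mean averages over both. The split used means that include the shTardbp arrays. It thus favours rises among the brighter probe sets, and the contrast is no separate result. LFA-1 needs beta-2 as its partner, and Itgb2 was low in all groups (4.43 in shTardbp, 4.30 in shGFP and 4.31 in shLuciferase; log2 change 0.12, adjusted p = 0.169). Of the 14 Itgb2 probe sets, 7 had a mean above the low mark, with changes from -0.16 to 0.88 and a median of 0.08. The gene means of the other leukocyte alpha genes Itgam, Itgax and Itgae were low in all groups too. Of 9 measured leukocyte markers 1 rose (Emr1, log2 change 0.41) and none fell. Summed over these 9 markers the log2 level was 40.4 to 42.1 in shTardbp and 39.9 to 42.2 in the controls, and the defining marker Ptprc was low (3.96 in shTardbp, 3.91 in shGFP and 3.95 in shLuciferase).

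Of the 7 beta subunits analysed here, Itgb4 rose, Itgb3 fell and 5 did not pass. Itgb3, the partner of alpha-v and alpha-IIb, had 5.65, 5.53, 5.47 and 5.54 in shTardbp, 5.96, 6.47, 6.40 and 6.16 in shGFP and 6.25, 6.23 and 5.94 in shLuciferase. All shTardbp arrays were lower than all controls (log2 change -0.64, SE 0.0964, adjusted p = 0.000163), and all 14 of its probe sets were lower (log2 changes -1.39 to -0.21). With the code letter as a block its log2 change was -0.39 and its adjusted p 0.146. Itgav, the gene of its alpha-v partner, rose against both controls together. Itgb1, the beta subunit that most alpha subunits can pair with, was at 11.08, 10.98, 10.98 and 11.03 in shTardbp, 10.76, 11.05, 11.04 and 11.03 in shGFP and 10.97, 10.90 and 10.69 in shLuciferase (log2 change 0.10, 95% confidence interval -0.05 to 0.26, adjusted p = 0.358). In all 18 of its probe sets the shTardbp mean was above the control mean, by 0.02 to 0.23, and the 10 neighbouring measured genes had a median change of -0.21. Itgb5, another alpha-v partner, had 8.28, 8.21, 8.04 and 8.16 in shTardbp, 8.51, 8.73, 8.53 and 8.52 in shGFP and 8.35, 8.34 and 7.92 in shLuciferase (log2 change -0.21, adjusted p = 0.0855). shLuciferase 4 was its lowest array, and without it the log2 change was -0.28 (adjusted p = 0.00594). Its neighbours had a median change of -0.22. Itgb7 (log2 change -0.000959) did not pass, nor did Itgb6, which was low in all groups. Itgbl1 and Itgb2l, which match the rule but are related genes and not standard subunits, had log2 changes of 0.07 and -0.00319.

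**Figure D2:**
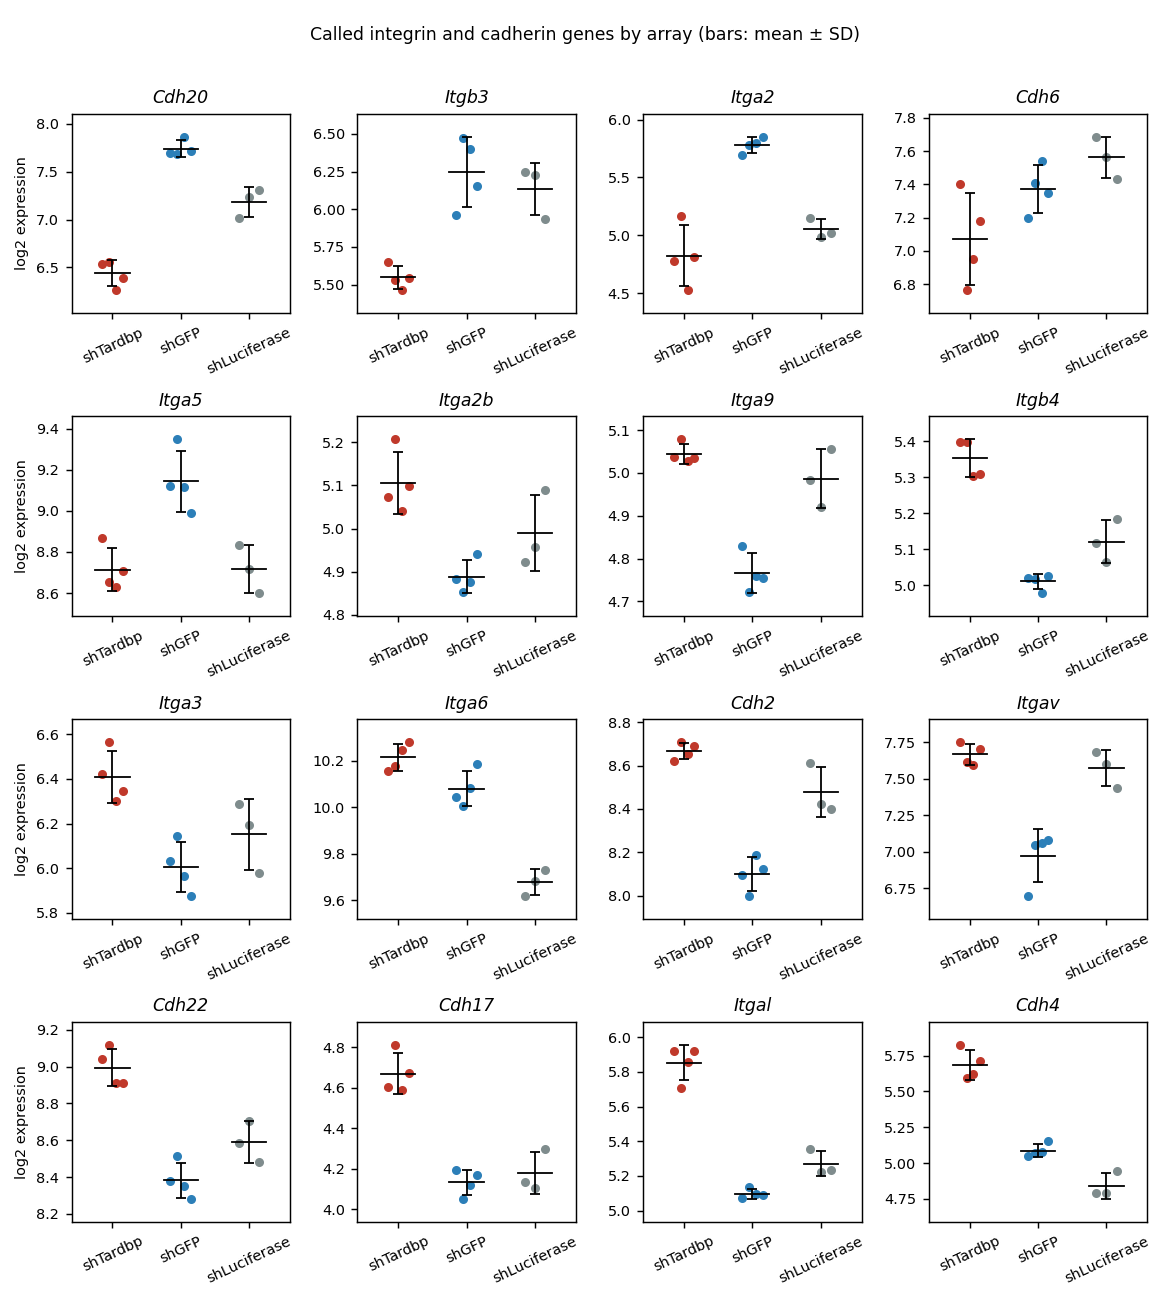
Each panel gives the log2 expression (vertical axis) of 1 of the 16 called genes on every array, with shTardbp to the left of shGFP and shLuciferase, and bars for the mean and SD. For Cdh4, Itgal, Cdh17 and Cdh22 the shTardbp points stand above all control points, and for Cdh20 and Itgb3 below them.

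Cdh20, a type II cadherin found in neural crest and brain, had the largest change of all 42 members. It had 6.53, 6.56, 6.27 and 6.39 in shTardbp, 7.70, 7.68, 7.87 and 7.72 in shGFP and 7.01, 7.23 and 7.31 in shLuciferase. The lowest control array, shLuciferase 1, was still above every shTardbp array (log2 change -1.03, SE 0.0768, adjusted p = 4.59e-07). All 12 probe sets were lower (log2 changes -1.54 to -0.46). Cdh7, a type II cadherin that like Cdh20 is on chromosome 1, was low in all groups. Cdh6, a type II cadherin of kidney and neural crest, fell 1.31-fold (log2 change -0.39, SE 0.108, adjusted p = 0.0122). It had 7.40, 6.77, 6.95 and 7.18 in shTardbp, 7.20, 7.41, 7.54 and 7.35 in shGFP and 7.69, 7.57 and 7.44 in shLuciferase, so the groups overlapped, with shTardbp 1 within the shGFP range. With probe set medians its log2 change was -0.54 (adjusted p = 0.0534), and with the code letter as a block -0.24 (adjusted p = 0.496).

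Cdh22, a type II cadherin of the brain and pituitary, rose instead. It had 9.04, 9.12, 8.91 and 8.91 in shTardbp, 8.38, 8.51, 8.35 and 8.28 in shGFP and 8.59, 8.71 and 8.48 in shLuciferase, with no overlap (log2 change 0.51, SE 0.0685, adjusted p = 6.78e-05), and all 14 probe sets were higher. Of the other type II genes, Cdh11 was at 6.27 in shTardbp, 6.14 in shGFP and 6.30 in shLuciferase (log2 change 0.06, 95% confidence interval -0.17 to 0.29), and Cdh5, the cadherin of endothelial junctions, had 4.65, 4.49, 4.39 and 4.52 in shTardbp, 4.54, 4.42, 4.39 and 4.43 in shGFP and 4.56, 4.38 and 4.60 in shLuciferase. Its group means were all low and its arrays overlapped (log2 change 0.04, adjusted p = 0.772). Cdh8, Cdh10 and Cdh12 were low as well.

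Both classical type I cadherins typical of neural tissue rose. Cdh2, N-cadherin, had 8.62, 8.71, 8.65 and 8.69 in shTardbp, 8.10, 8.001, 8.19 and 8.12 in shGFP and 8.61, 8.42 and 8.40 in shLuciferase. All shTardbp arrays were above all controls, although shLuciferase 1 came within 0.1 of the lowest of them (log2 change 0.38, SE 0.0603, adjusted p = 0.000285). All 16 probe sets were higher, by 0.07 to 0.64. Cdh4, R-cadherin, rose 1.65-fold with 5.82, 5.59, 5.62 and 5.71 in shTardbp, 5.05, 5.07, 5.08 and 5.16 in shGFP and 4.79, 4.79 and 4.95 in shLuciferase. Every shTardbp array was higher than every control (log2 change 0.72, SE 0.0619, adjusted p = 1.47e-06), and all 18 probe sets were higher. Cdh1, E-cadherin, was at 4.95, 4.99, 4.91 and 4.89 in shTardbp, 4.86, 4.96, 4.80 and 4.85 in shGFP and 4.87, 4.90 and 5.04 in shLuciferase. The groups overlapped, and its log2 change of 0.04 did not pass (95% confidence interval -0.09 to 0.16, adjusted p = 0.746). Cdh15 had a log2 change of 0.01, and Cdh3 was low in all groups.

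Cdh17, a cadherin of liver and intestine with a short tail that lacks the catenin sites, rose 1.42-fold (log2 change 0.51, SE 0.0638, adjusted p = 3.52e-05). It had 4.60, 4.81, 4.59 and 4.67 in shTardbp, 4.19, 4.05, 4.12 and 4.17 in shGFP and 4.14, 4.11 and 4.30 in shLuciferase. The groups did not overlap, but both control means were low, so the size of its rise is uncertain. Of its 20 probe sets 7 had a mean above the low mark, and all 7 were higher, with a median of 1.02. The shTardbp arrays are part of that mean, so a rise can itself lift a probe set over the mark. The count is therefore no separate support for the rise or its size. Among 15 measured markers of epithelium, endothelium and muscle 2 rose (Vwf, log2 change 0.70, and Pecam1, 0.41) and none fell. Their summed log2 level was 74.0 to 75.5 in shTardbp and 72.7 to 75.3 in the controls, the epithelial marker Epcam was low in all groups, and the part of such cells in the result was not tested. Cdh13, which is held by a lipid anchor and has no tail, had 6.76, 6.63, 6.90 and 6.89 in shTardbp, 6.10, 6.33, 6.38 and 6.23 in shGFP and 6.96, 6.93 and 6.96 in shLuciferase (log2 change 0.19, adjusted p = 0.0574). All its shTardbp values were above shGFP and below shLuciferase. Cdh16, Cdh23 and Cdh26 were low in all groups.

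Several of these values turned on which control line was used. Against shGFP alone 11 members passed as higher (12.4% of all genes did) and 5 as lower (15.5%). Against shLuciferase alone 6 passed as higher (11.8% of all genes) and 3 as lower (14.3%). The comparisons share the shTardbp arrays. Of the 16 called members 7 passed against each control on its own: Cdh4, Cdh17, Cdh22, Itgal and Itgb4 were higher, and Cdh20 and Itgb3 lower. Another 7 passed against shGFP alone (Cdh2, Itga2, Itga2b, Itga3, Itga5, Itga9 and Itgav) and 2 against shLuciferase alone (Cdh6 and Itga6). The matching shares over all genes were not computed, so these counts are not read as particular to the members. The labels do not state that arrays with the same replicate number form pairs. With the replicate number entered as a block, Itga2b no longer passed against shGFP (adjusted p = 0.0778). Itgav differed by 0.69 against shGFP (adjusted p = 6.43e-05) and by 0.09 against shLuciferase (adjusted p = 0.596). For Itga2 these log2 differences were -0.96 and -0.23, and for Itga6 they were 0.13 and 0.54. N-cadherin gene Cdh2 stood at 0.56 against shGFP and 0.19 against shLuciferase (adjusted p = 3.25e-05 and 0.0791).

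**Figure D3:**
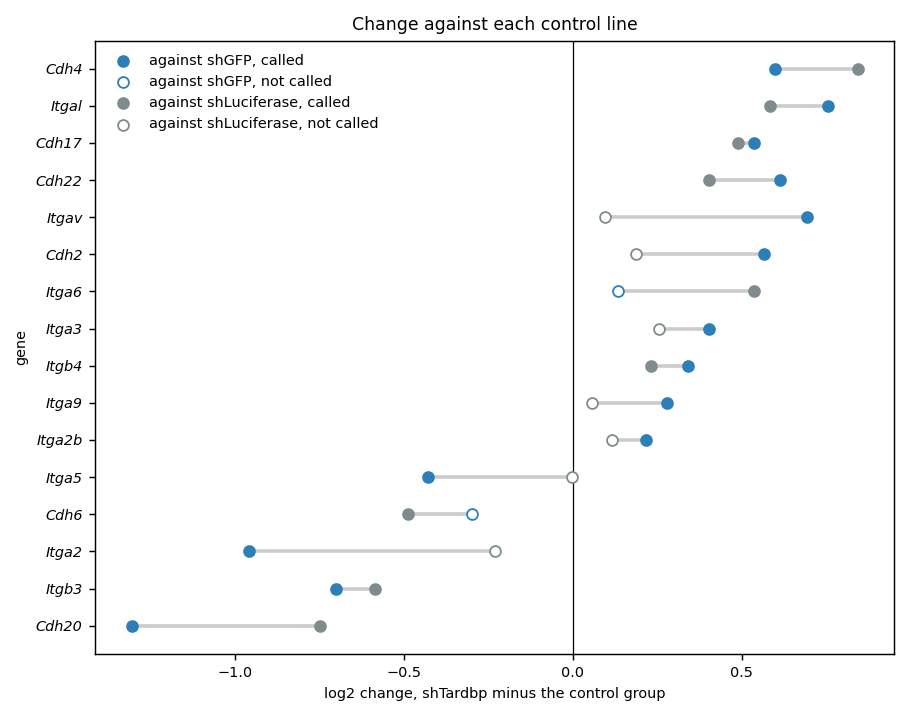
For each of the 16 called genes, the log2 change of shTardbp (horizontal axis) is plotted against shGFP in blue and against shLuciferase in grey, filled where it passed and open where it did not. The pair of points lies close together for Cdh17 and Itgb3 and far apart for Itgav and Itga2.

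The gap between the controls was tested directly in the same model. In shGFP 5 members were higher than in shLuciferase (6.26% of all genes were) and 4 lower (4.82%). Itga2 (log2 change 0.73, SE 0.116, adjusted p = 0.00106), Cdh20 (0.56, adjusted p = 0.00151), Itga5, Itga6 and Itgb5 were higher in shGFP. Cdh13 (log2 change -0.69, SE 0.0859, adjusted p = 0.000142), Itgav (-0.60, adjusted p = 0.00124), Cdh2 and Itga9 were lower. Of the 9 members that passed against 1 control alone, 6 had such a called gap. A gap between the controls makes such a pass more likely, so this count is no separate result. Within the arrays with the letter P, all 4 shTardbp values lay beyond shLuciferase 4 in the called direction for 9 of the 11 higher and 3 of the 5 lower members. The exceptions were Itga2b, Itga9, Itga2 and Itga5. The members had been called with these same arrays, and shLuciferase 4 is the only control with that letter. The count is thus no separate support, and no share over all genes was computed for it.

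Whether shTardbp cells used different parts of these genes was asked from single probe sets. Usage here means how much more or less a probe set changed than its gene's mean, tested by limma on probe sets above the 25th percentile in genes above the median level. It could be tested for 211 probe sets of 11 members, and none passed, beside 537 of 7531 genes (7.13%) with at least 1 such probe set. At an unadjusted p under 0.05 there were 21 probe sets in 10 members, beside 12% of all 101898 probe sets tested and 64.9% of all 7531 genes. Without shGFP 1 a probe set of Itgav passed, and without shLuciferase 4 one of Cdh20. When no filter was applied, 925 probe sets of all 42 members were tested, and 4 members (Cdh4, Cdh17, Itgal and Itgb4) had at least 1 that passed, beside 8.75% of the 14165 genes tested that way. One probe set of Cdh4 stood out there, with 6.60, 6.03, 6.23 and 6.82 in shTardbp, 4.32, 4.53, 4.25 and 4.26 in shGFP and 3.58, 3.67 and 3.53 in shLuciferase. All 7 control values of it were under the low mark of 4.57, so no size is given for its difference from the rest of the gene. Where it lies in the gene is not known, since positions were not used here. Some Itgal probe sets that passed in this unfiltered test were under the low mark on every array. There a flat value counts as lower usage because the gene mean rose.

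**Figure D4:**
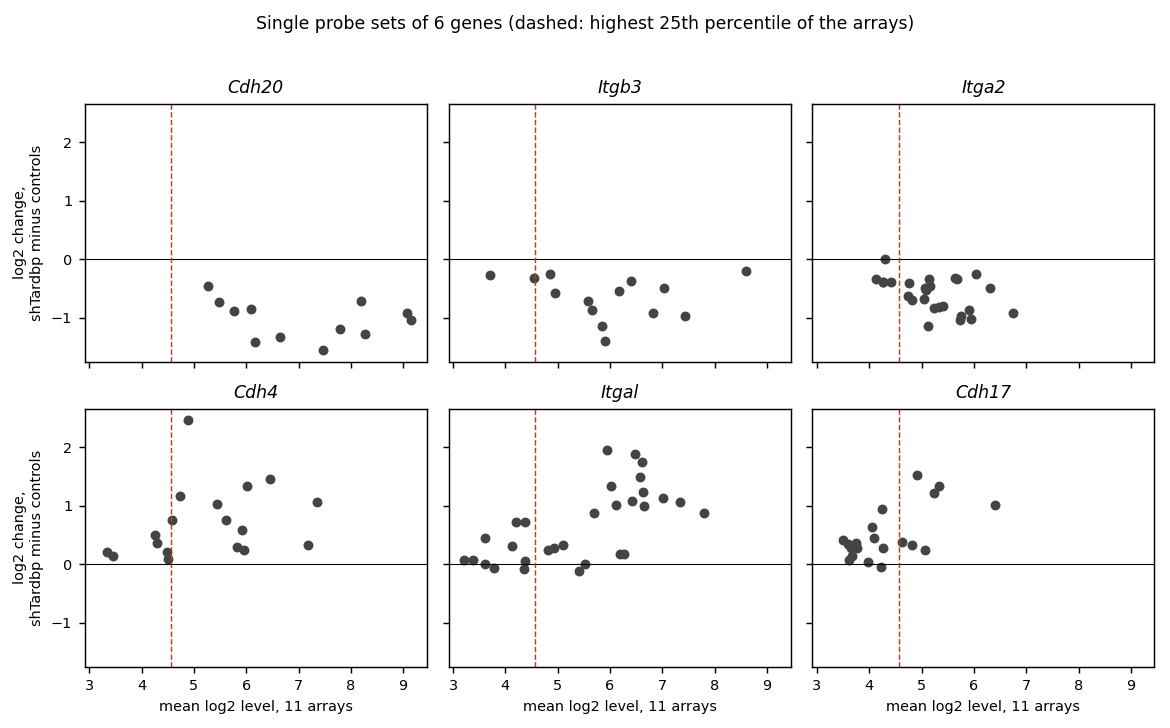
Each point is 1 probe set of the named gene, with its mean log2 level over the 11 arrays (horizontal axis) and its log2 change in shTardbp against the controls (vertical axis). In Cdh20 all 12 points lie below 0, and in Itgal and Cdh17 the large rises sit mostly among probe sets right of the dashed low mark. The level includes the shTardbp arrays, so a rise itself moves a point to the right.

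Genes that work with these receptors moved as follows. Among 17 measured catenins and other cadherin partners 4 rose and 3 fell (median log2 change 0.02). Over all genes 13.5% were called higher and 17% lower in this comparison. Jup, plakoglobin, had 9.93, 9.999, 9.98 and 10.03 in shTardbp, 9.13, 9.37, 9.34 and 9.15 in shGFP and 9.41, 9.48 and 9.44 in shLuciferase (log2 change 0.64, SE 0.0618, adjusted p = 4.17e-06). Ctnna1, alpha-catenin, rose 1.48-fold with 9.75, 9.85, 9.75 and 9.76 in shTardbp, 9.25, 9.30, 9.40 and 9.42 in shGFP and 9.11, 9.23 and 8.92 in shLuciferase (log2 change 0.57, SE 0.0661, adjusted p = 2.09e-05). Ctnnd1, p120 catenin, had a mean of 8.98 in shTardbp, 8.39 in shGFP and 8.62 in shLuciferase (log2 change 0.47, SE 0.0804, adjusted p = 0.000458). Arvcf, a close relative of p120, was at 8.76 in shTardbp, 8.26 in shGFP and 7.97 in shLuciferase (log2 change 0.65, SE 0.0866, adjusted p = 6.40e-05). In each of these 4 genes every shTardbp array was above every control array, as in 8.45% of all genes, and they kept their calls in all 20 alternatives. The 4 were named because they had the smallest adjusted p of their list, so this is no separate support. Ctnnb1, beta-catenin, named here after its values were seen, was at 11.83 ± 0.0188 in shTardbp, 11.87 ± 0.0524 in shGFP and 11.76 ± 0.0673 in shLuciferase (SD, n = 4, 4 and 3; log2 change 0.02, 95% confidence interval -0.09 to 0.13). The 3 that fell were Pvrl1 (log2 change -0.29), Ctnnal1 (-0.26) and Pkp4 (-0.16).

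Focal adhesion genes went both ways, 8 of 42 higher and 10 lower (median log2 change 0.02). Cd151, a tetraspanin that binds laminin-binding integrins, had 10.57, 10.52, 10.48 and 10.50 in shTardbp, 9.42, 9.75, 9.47 and 9.32 in shGFP and 9.99, 10.06 and 10.05 in shLuciferase with every shTardbp array above every control (log2 change 0.76, SE 0.0736, adjusted p = 4.45e-06). The adaptors Lims2 and Tgfb1i1 rose by 0.64 and 0.53 on the log2 scale (adjusted p = 7.66e-06 and 4.01e-05). Itgb3bp, a nuclear protein that was first found through its binding to the beta-3 tail, fell (log2 change -0.87, SE 0.125, adjusted p = 0.000113, 3 probe sets). Of 33 measured integrin ligands 4 rose and 5 fell (median 0.02). Npnt, nephronectin, a ligand of alpha-8 beta-1, was at 6.65, 6.50, 6.42 and 6.54 in shTardbp, 7.59, 8.01, 8.19 and 7.97 in shGFP and 7.51, 7.62 and 7.79 in shLuciferase, with shTardbp lowest throughout (log2 change -1.27, SE 0.0994, adjusted p = 6.62e-07). Madcam1 (log2 change 0.59, SE 0.0755, adjusted p = 4.04e-05) and the neuronal adhesion molecule L1cam (log2 change 0.46, SE 0.0871, adjusted p = 0.00103) rose, and the basement membrane gene Nid1 fell (log2 change -0.39, SE 0.0655, adjusted p = 0.000411).

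Transcription factors known for switching cadherins were also measured, with 2 of 16 higher and 3 lower (median log2 change -0.04). Zeb1, a repressor of E-cadherin in carcinoma cells, fell 1.41-fold with 6.48, 6.70, 6.61 and 6.57 in shTardbp, 7.02, 6.89, 7.05 and 7.10 in shGFP and 7.10, 7.07 and 7.29 in shLuciferase (log2 change -0.50, SE 0.0668, adjusted p = 6.51e-05), and Zeb2 fell by 0.27 on the log2 scale (adjusted p = 0.00141). Snai1, another such repressor, was at 4.38 in shTardbp, 4.80 in shGFP and 4.84 in shLuciferase (log2 change -0.44, SE 0.104, adjusted p = 0.00492, 2 probe sets), with its shTardbp mean low. Sox9 and Tcf4 rose. Sox9, a neural crest and glial factor, had a log2 change of 0.33 (adjusted p = 0.0271). Tcf4 had a log2 change of 0.21 (adjusted p = 0.0149), which did not pass with probe set medians (log2 change 0.24), with the code letter as a block (0.03) or without shTardbp 3 (0.19). Its adjusted p went up to 0.864, with that block. With that letter as a block Zeb2 had a log2 change of -0.29 and an adjusted p of 0.0664. Beside these falls Cdh1 did not pass, and what the factors do to the members was not tested.

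**Figure D5:**
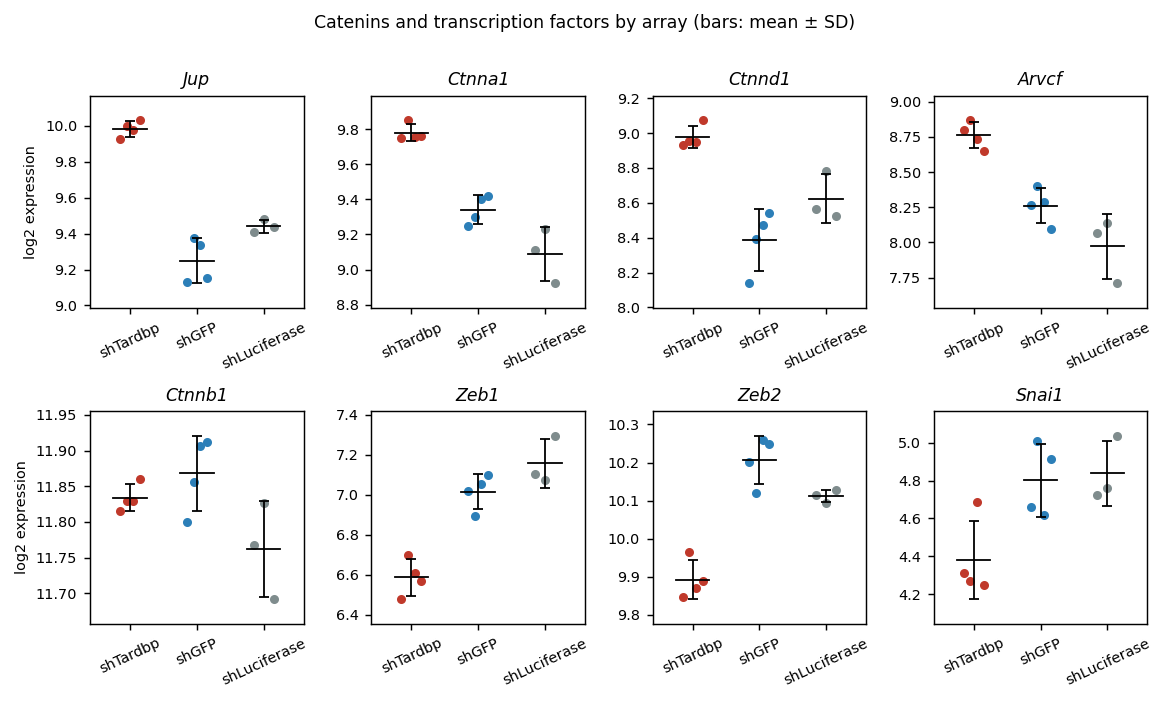
Log2 expression (vertical axis) of catenin genes and of 3 repressors on every array, with shTardbp to the left of both controls and bars for the mean and SD. Jup, Ctnna1, Ctnnd1 and Arvcf lie above all controls in shTardbp, Ctnnb1 overlaps with them, and Zeb1 and Zeb2 lie below them.

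Zeb and Snail proteins bind the letters CACCTG, which read CAGGTG on the other strand. RefSeq promoters (GRCm38.p6; 250 bases before to 50 after the start site, 300 in all) were given for 26 of the 42 members. The motif was found in 8 of their 30 promoters (26.7%), beside 20.2% of all 32851 promoters. The 8 include several start sites of Cdh7, which was low in all groups. Among called members with a given promoter, only Itga3 and Itga9 had the motif. The promoters printed below belong to genes that changed in this comparison. They are the strongest fall (Cdh20), a rise against each control (Cdh22) and the called member with more than 1 motif (Itga9). Capitals mark the motif, and each sequence runs 5′ to 3′ on the strand of its gene. Cdh20 is on the plus strand at chr1:104768270-104768569, Cdh22 on the minus strand at chr2:165234688-165234987 and Itga9 on the plus strand at chr9:118711442-118711741. The Itga9 motifs begin 87 and 55 bases before the start site. Of the window's bases 50.7% were G or C in Cdh20, 76.3% in Cdh22 and 56.7% in Itga9. A match is a run of letters and not a shown binding site.
Cdh20: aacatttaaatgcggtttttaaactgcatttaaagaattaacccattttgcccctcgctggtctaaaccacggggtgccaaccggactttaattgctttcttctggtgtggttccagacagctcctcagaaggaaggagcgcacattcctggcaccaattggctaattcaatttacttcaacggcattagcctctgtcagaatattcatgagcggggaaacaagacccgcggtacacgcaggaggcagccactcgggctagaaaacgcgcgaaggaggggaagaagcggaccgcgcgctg
Cdh22: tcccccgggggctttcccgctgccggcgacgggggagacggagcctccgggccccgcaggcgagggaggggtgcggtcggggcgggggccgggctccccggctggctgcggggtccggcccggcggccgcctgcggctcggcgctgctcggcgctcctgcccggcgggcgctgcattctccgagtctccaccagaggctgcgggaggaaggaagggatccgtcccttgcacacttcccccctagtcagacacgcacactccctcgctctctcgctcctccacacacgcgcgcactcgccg
Itga9: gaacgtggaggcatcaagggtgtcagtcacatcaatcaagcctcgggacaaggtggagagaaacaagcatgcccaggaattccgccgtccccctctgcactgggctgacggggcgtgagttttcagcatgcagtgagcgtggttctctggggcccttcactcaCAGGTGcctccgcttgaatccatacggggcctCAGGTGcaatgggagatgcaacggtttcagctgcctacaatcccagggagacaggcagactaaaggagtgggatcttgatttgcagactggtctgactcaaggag

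Markers of other cells were read as lists. Of 13 measured glia and Schwann cell markers 1 rose (Mbp, log2 change 0.24), and their summed level was 70.7 to 73.0 in shTardbp and 70.3 to 72.6 in the controls. Of 14 fibroblast and mesenchyme markers 4 rose and 3 fell, with a summed level of 76.9 to 79.0 in shTardbp and 77.1 to 79.4 in the controls. Dcn (-1.61) and Pdgfra (-0.92) had the largest falls of that list and S100a4 the largest rise (0.89), while Lum, Thy1 and Fap were low. The part of such cells in the members' changes was not tested.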

How the data were processed

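Affymetrix whole-transcript arrays measured total RNA of 4 shTardbp, 4 shGFP and 3 shLuciferase samples. The deposited table holds log2 values of 194293 probe sets, made by the authors with RMA and Partek according to the submitters' processing notes, which name no version. Neither background settings nor a genome build is stated (not given in the sources used here). Of these probe sets 179496 have 1 gene symbol, and only these were used (925 for the members).

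Gene values (mean of the probe sets) were fitted with limma 3.58.1 in R 4.3.3 as 1 model of 3 groups over all 15803 genes, with no filter. "Both controls" is the mean of the 2 control group means. Benjamini-Hochberg adjustment ran over every gene tested (threshold 0.05), and ± gives the SD. The usage test needed at least 3 probe sets per gene. Both tests were also run on simulated data whose levels and spread were taken from these arrays, and the outcome is not given here. The number of arrays limits the precision.

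Members and lists were chosen with earlier results of these data known. Values by array are given for called members, for Itgb1, Cdh1, Cdh2 and Cdh5, for members that differ between controls, and for up to 4 called genes of each partner list; any other name was picked after seeing its value. Deviations of same-numbered arrays from their group means were correlated across genes. The values were 0.116, 0.201 and 0.201 for shTardbp with shGFP, and 0.0682, 0.121 and -0.0434 for shTardbp with shLuciferase. For shGFP with shLuciferase they were -0.0561 and 0.263. Deviations of differently numbered arrays were not correlated for comparison and the labels state no pairing, so whether the numbers pair arrays is not settled. The replicate block is given as an alternative only. Alternatives were the median of the probe sets, filters on dim probe sets or genes, renormalization, centring, blocks, an intensity trend, array weights and leaving out each array. Neighbours are up to 10 measured genes on each side on the chromosome in the RefSeq table of GRCm38.p6 (10 in all for Itgb1, 20 for Itgb4 and Itgb5), in which all members were found by symbol.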

Additional observations from a re-analysis of the deposited data

Results flagged for a closer look

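Of 84 groups of 4 arrays (42 members in shTardbp and in shGFP), 6 held an array whose gap to the nearest of the others was a larger share of the group's range than Dixon's 95% critical value allows, and chance gives about 1 in 20. Of these 6, 5 were shGFP 1. Cdh11 stood at 5.85 in shGFP 1, with the other 3 arrays at 6.22 to 6.27. Cdh16 stood at 4.52 in shGFP 1, with the other 3 arrays at 4.38 to 4.40. Itga7 stood at 4.85 in shGFP 1, with the other 3 arrays at 4.54 to 4.58. Itgav stood at 6.70 in shGFP 1, with the other 3 arrays at 7.05 to 7.08. Itgb1 stood at 10.76 in shGFP 1, with the other 3 arrays at 11.03 to 11.05. Itgb5 stood at 8.73 in shGFP 2, with the other 3 arrays at 8.51 to 8.53. Without shGFP 1 the log2 change of Itgav was 0.35 (limma adjusted p = 0.000915), that of Itgb1 0.07 (0.495), and 10 members were called higher and 4 lower. The shares over all genes without that array were not computed.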

How the results depend on the processing

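Of 175 counts of members recomputed under the alternatives, 161 stayed within 1.5 times the reported count. Only genes above the median level, which leaves fewer members to test, gave 5 higher and 3 lower against both controls, 4 and 3 against shGFP, and 2 higher against shLuciferase. A block for the array code letter gave 7 higher and 1 lower against both controls, 6 and 2 against shGFP, and 1 lower against shLuciferase; the cause was not tested. The letter effect in that block rests on shLuciferase 4, since no other group holds both letters. Array weights gave 8 members lower in shGFP than in shLuciferase. The unfiltered usage test gave 4 members, and leaving out 1 array gave 0 to 1. Leaving out each array gave 9 to 11 higher and 4 to 6 lower members against both controls, and without shLuciferase 4 there were 11 and 6. With the replicate block 9 members were higher and 4 lower against both controls, and 10 and 5 against shGFP, where Itga2b alone changed its call. Among these alternatives, shares over all genes were computed only for the code letter block against both controls and for the unfiltered usage test. The other counts are therefore not read as particular to the members.

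Of 745 recomputed log2 changes of named genes, 685 kept direction and side of the threshold, 48 lost the call, 8 gained one and 4 turned sign, all of the last in genes that were not called. With that letter as a block these were Cdh1 (-0.10), Cdh5 (-0.071) and Itgb5 (0.14). Cdh5 also turned without shTardbp 1, and leaving out each array gave it -0.00916 to 0.0784. Cdh13 was called in 5 of 20 alternatives (adjusted p = 0.0178 to 0.663). A member near or under the low mark can hide a change.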
